A study of Mus musculus with 2 samples.

Results

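The data described here are the messenger RNA counts of 10 genes of fibroblast growth factor (FGF) signalling in single cells of the mouse lower incisor. They comprise 6 ligands (Fgf1, Fgf2, Fgf3, Fgf7, Fgf9 and Fgf10) and the 4 receptors (Fgfr1, Fgfr2, Fgfr3 and Fgfr4), taken by name out of 31053 genes measured. All 10 had a single row in the deposited matrix. The tissue came from untreated C57BL/6 mice of 4 weeks, housed pathogen-free. After the proximal region had been cut off, pulp was taken from the lower jaw along with dental epithelium. Collagenase released the cells, which entered a 10x Genomics 3′ library. The tissue label names dental mesenchyme alone, but cells with epithelial markers were present. Both sample titles belong to a single matrix without a map from cells to titles, so the data are 1 sample. The labels do not give the number of animals, and without replicates nothing here was tested.

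FGF ligands are secreted proteins that bind receptor tyrosine kinases on nearby cells together with heparan sulphate chains. Binding activates the RAS and MAP kinase cascade, whose transcriptional responses include the ETS factors Etv4 and Etv5 and the feedback inhibitors of the Sprouty and Dusp families. In the tooth, ligands made by epithelium and by mesenchyme act across the boundary between the tissues, and FGF3, FGF9 and FGF10 are known for supporting the cervical loop, the niche at the proximal end of the continuously growing incisor. Alternative splicing gives FGFR1, FGFR2 and FGFR3 an epithelial and a mesenchymal form that prefer different ligands. Counts taken at the 3′ end do not separate these forms.

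Unique molecular identifiers (UMIs, 1 per captured RNA molecule) were counted in 4502 cells after doublets and haemoglobin-rich barcodes had been removed, with a median of 5780 UMIs per cell. Cells were grouped without the FGF genes. The groups were 768 epithelial-like cells (median 9307 UMIs), 2205 mesenchymal-like cells (7005 UMIs), 74 endothelial-like cells (4496 UMIs) and 1360 immune cells (2962 UMIs), besides 57 erythroid and 38 unnamed cells. The groups were named from marker lists, so sums of the same markers describe the groups and are not a test of the names. The 7 epithelial markers (Epcam and keratins among them) summed to 1990 CPM (UMIs scaled to a common total per group) in epithelial cells and 19.5 CPM in mesenchymal cells. The 7 mesenchymal markers (collagens, Pdgfra) summed to 14460 CPM in mesenchymal cells and 204 CPM in epithelial cells, and the 7 endothelial markers to 8285 CPM in endothelial cells and 27.2 CPM in mesenchymal cells. Ameloblast genes were also present outside the epithelium: Amelx, the main enamel matrix gene, stood at 14928 CPM in droplets of 1 to 20 UMIs, which were taken as free RNA.

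Clusters are called by tissue layer and leading gene. The epithelium held a cluster led by Grp (182 cells, all 5 cycling markers raised), one by Enpp2 (93 cells, with Krt17 among its markers), one by Dspp (204 cells, with Amelx at 8.58% of its UMIs) and one by Ambn (289 cells, ameloblast-like with 4 of 7 ameloblast markers raised). The same number was raised in the epithelial Dspp cluster when all cells were clustered, but not within the epithelium, and that cluster is counted with the other epithelial cells. The mesenchyme held clusters led by Lypd1 (371 cells, with the apical marker Foxd1), Ube2c (332 cells, cycling), Lgals3 (245 cells), Fmod (356 cells), Cldn10 (123 cells) and Tac1 (205 cells). Clusters led by Dmp1 (169 cells) and Dspp (22 cells) were odontoblast-like, odontoblasts being the dentin-forming cells. Osteoblast markers, of which Bglap, Ibsp and Sp7 are also on the odontoblast list, were raised with them (5 of 6 in the Dmp1 and 6 of 6 in the Dspp cluster). A cluster of 382 cells led by Igf1 and Ogn was dental follicle-like, the follicle being the connective tissue around the tooth. Every level is given as CPM with an exact Poisson 95% interval, every ratio as a log2 value with an exact conditional binomial 95% interval and every share with a Clopper-Pearson 95% interval. These intervals cover counting error only.

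The ligands divided by tissue layer, whereas Fgfr1 and Fgfr2 did not. Of the 8 members with at least 30 UMIs over both layers, Fgf1 and Fgf9 were at least 2-fold higher in epithelial cells, and Fgf2, Fgf3, Fgf10 and Fgfr3 were at least 2-fold lower there. Among all 12920 genes with as many UMIs, 10.5% were higher and 20.1% were lower by that rule. Fgfr1 and Fgfr2 lay within 2-fold between the layers. Fgf7 (10 UMIs) and Fgfr4 (17 UMIs) were too sparse to place. The median log2 ratio of the 8 members was -1.24, beside -0.29 for all genes. Amelx and 4 other genes each took more than 1% of the UMIs of a layer. With them left out of the totals the median of all genes was 0.01 and the shares were 13.8% higher and 15% lower, and the same 6 members were called in the same directions.

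**Figure D1:**
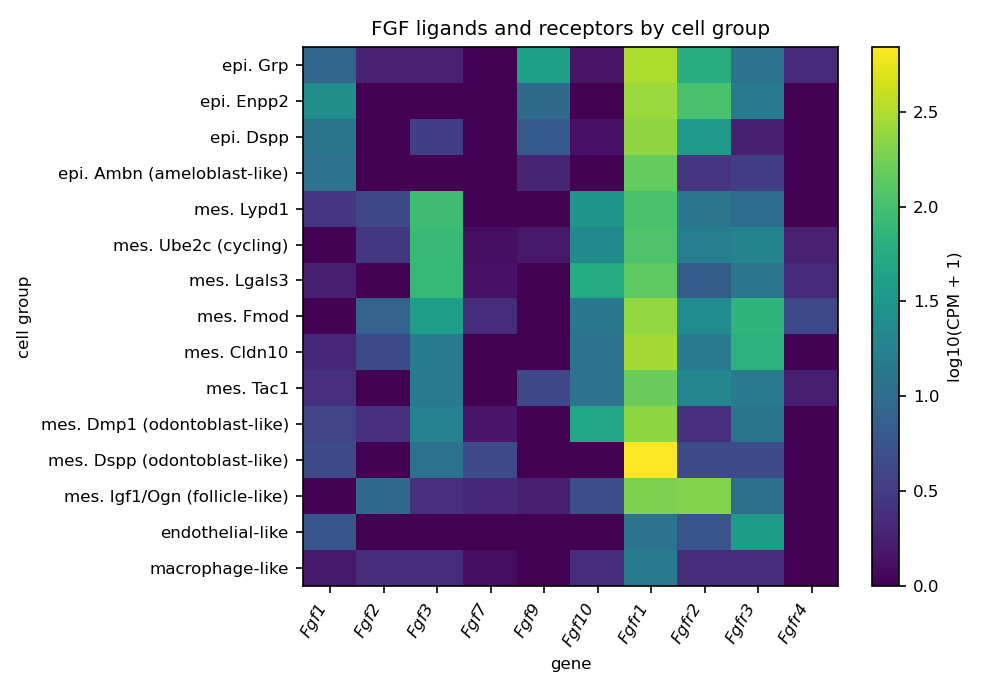
Level of each FGF member (x axis) in each cell group (y axis), coloured by log10(CPM + 1). Fgf3 and Fgf10 are bright in mesenchymal rows, Fgf9 in the epithelial Grp row (40.1 CPM) and Fgfr1 in every epithelial and mesenchymal row.

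The mesenchymal ligands were led by Fgf3 and Fgf10, which signal to epithelial receptors in the developing tooth. Fgf3 (ENSMUSG00000031074, mm10 chromosome 7, 144838083 to 144844436, plus strand, protein-coding) had 866 UMIs in mesenchymal cells and 8 in epithelial cells. Fgf10 (ENSMUSG00000021732, chromosome 13, 118669791 to 118792115, plus strand, protein-coding) had 451 and 2 UMIs, and Fgf9 (ENSMUSG00000021974, chromosome 14, 58070547 to 58112720, plus strand, protein-coding) had 8 and 121. These annotated spans are from GENCODE M21. The start-site windows of the 3 ligands that part most sharply between the layers are shown for that reason, from 250 bases before to 50 bases after the RefSeq start (build GRCm38.p6, plus strand, 5′ to 3′). Capitals mark each CG dinucleotide.
Fgf3, chr7:144838362-144838661: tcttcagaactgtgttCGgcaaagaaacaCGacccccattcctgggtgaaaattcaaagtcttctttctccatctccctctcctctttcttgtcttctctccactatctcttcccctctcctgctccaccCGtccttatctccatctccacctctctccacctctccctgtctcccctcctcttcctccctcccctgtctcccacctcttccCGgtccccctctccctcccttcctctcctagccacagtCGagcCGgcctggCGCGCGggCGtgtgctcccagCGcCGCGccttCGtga
Fgf10, chr13:118714449-118714748: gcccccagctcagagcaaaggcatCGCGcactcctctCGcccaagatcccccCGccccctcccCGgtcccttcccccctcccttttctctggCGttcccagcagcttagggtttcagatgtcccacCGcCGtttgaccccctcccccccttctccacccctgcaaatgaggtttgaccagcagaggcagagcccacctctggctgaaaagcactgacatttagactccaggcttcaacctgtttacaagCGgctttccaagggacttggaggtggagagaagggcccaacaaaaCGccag
Fgf9, chr14:58072436-58072735: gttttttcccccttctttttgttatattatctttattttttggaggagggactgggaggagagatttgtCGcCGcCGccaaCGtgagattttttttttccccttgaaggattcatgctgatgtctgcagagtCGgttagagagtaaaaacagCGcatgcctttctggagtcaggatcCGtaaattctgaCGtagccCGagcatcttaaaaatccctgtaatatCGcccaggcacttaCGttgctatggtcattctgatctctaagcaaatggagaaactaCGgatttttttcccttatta
The windows of Fgf3 and Fgf10 had a GC content of 59.3% and 60.7%, and that of Fgf9 had 42.7%. The median over 32851 RefSeq windows was 52.7%. Fgf3 had 14 CG dinucleotides, Fgf10 had 10 and Fgf9 had 12, against a median of 7. As many as in Fgf3, Fgf10 and Fgf9 or more were found in 36.3%, 43.5% and 39.6% of all windows. On both strands, the TATA box (TATAAA, in 13.6% of all windows), the CCAAT box (CCAAT, 37.4%) and a homeodomain core (TAATTA, 5.29%) had no match in the 3 windows. The GC box (GGGCGG, 35.7%) had 1 match, in Fgf10, 199 bases before the start. A match of letters is a description of the window, and the counts carry no information on binding there.

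The mesenchymal level of Fgf3 was 48.1 CPM and the epithelial level 0.789 CPM, a log2 ratio (epithelial over mesenchymal) of -5.93 (-7.15 to -4.95). Its level was 89.6 CPM (77.6 to 103) in the Lypd1 cluster, 83.2 CPM in the Ube2c cluster and 78.3 CPM in the Lgals3 cluster, and the intervals of these neighbours overlapped. It stood at 38.6 CPM in the Fmod cluster, apart from the clusters above and below it. The Dmp1 (16.1 CPM), Tac1 (14.2 CPM), Cldn10 (13.3 CPM) and mesenchymal Dspp (10.8 CPM) clusters followed with overlapping intervals, and the follicle-like cluster had 1.47 CPM, beside 1.36 CPM in macrophage-like cells. The Lypd1, Ube2c and Lgals3 clusters thus held 201, 311 and 199 of all 882 Fgf3 UMIs. Of the 8 epithelial UMIs, 6 were in 2 cells of the Dspp cluster and 2 in the Grp cluster. Free RNA held Fgf3 at 11.1 CPM, so the clusters at 10.8 to 16.1 CPM were near it.

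Fgf10 had 25.1 CPM in the mesenchyme against 0.197 CPM in the epithelium, a log2 ratio of -6.99 (-10.04 to -5.13). It was highest in the Lgals3 cluster (55.1 CPM, 46.4 to 65.0) and the Dmp1 odontoblast-like cluster (49.3 CPM), whose intervals overlapped. Both lay apart from the Lypd1 cluster at 30.3 CPM, followed by the Ube2c cluster at 21.4 CPM. The Fmod, Cldn10 and Tac1 clusters had 12.9, 11.1 and 10.4 CPM, and the follicle-like cluster had 3.68 CPM. Free RNA held Fgf10 at 2.43 CPM, within the interval of the follicle-like cluster (1.76 to 6.77). No Fgf10 UMI was seen in the 22 cells of the mesenchymal Dspp cluster, where 3 counts would be 10.8 CPM. The order of the clusters therefore differed between the ligands: the Dmp1 cluster ranked the fifth for Fgf3 and was next to the highest for Fgf10, while the Lypd1 and Ube2c clusters stood below it for Fgf10. In the Lgals3 cluster Amelx was at 1516 CPM, against 193 to 569 CPM in the Dmp1 and Fmod clusters, while Epcam was at 3.15 CPM and Krt14 at 5.51 CPM, beside 1.78 and 3.56 CPM over the mesenchyme. The epithelial ligands Fgf9 and Fgf1 had 0 and 2 UMIs in the same cluster. The part of epithelial RNA in the Fgf3 and Fgf10 counts was not tested.

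Seen per cell, Fgf3 was detected in 479 of 2205 mesenchymal cells (21.7%) and in 4 of 768 epithelial cells (0.521%), and Fgf10 in 308 (14.0%) and 2 (0.260%). After thinning each cell to 2000 UMIs, Fgf3 was detected in 7.33% (6.23 to 8.55) of 2033 mesenchymal cells and Fgf10 in 4.13% (3.31 to 5.09). Neither was seen in the 711 thinned epithelial cells, where 3 cells would be 0.422%. In macrophage-like cells (median 3856 UMIs), which served as the background, the thinned shares were 0.315% and 0.158%. Unthinned, the macrophage-like shares were 0.507% and 0.634%. Within the thinned Lypd1 and Ube2c clusters Fgf3 was detected in 14.5% and 9.94% of cells.

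Fgf2 and Fgf7, the remaining mesenchymal ligands, were sparse. Fgf2 (ENSMUSG00000037225, chromosome 3, 37348346 to 37410108), a ligand that leaves cells without a classical signal peptide, had 58 mesenchymal and 2 epithelial UMIs (log2 ratio -4.03, -7.11 to -2.11). Of its mesenchymal UMIs 23 were in the follicle-like cluster (8.46 CPM) and 15 in the Fmod cluster (6.89 CPM), with overlapping intervals. None were in the Lgals3 or Tac1 clusters. Free RNA held 3.47 CPM of Fgf2, close to the 3.22 CPM of all mesenchymal cells. Fgf7 (ENSMUSG00000027208, chromosome 2, 126034658 to 126091185), a ligand of the epithelial form of FGFR2, had 11 UMIs in all cells, 10 of them mesenchymal and 0 epithelial, and 2.43 CPM in free RNA against 0.556 CPM in the mesenchyme. Its level could not be placed at this depth.

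**Figure D2:**
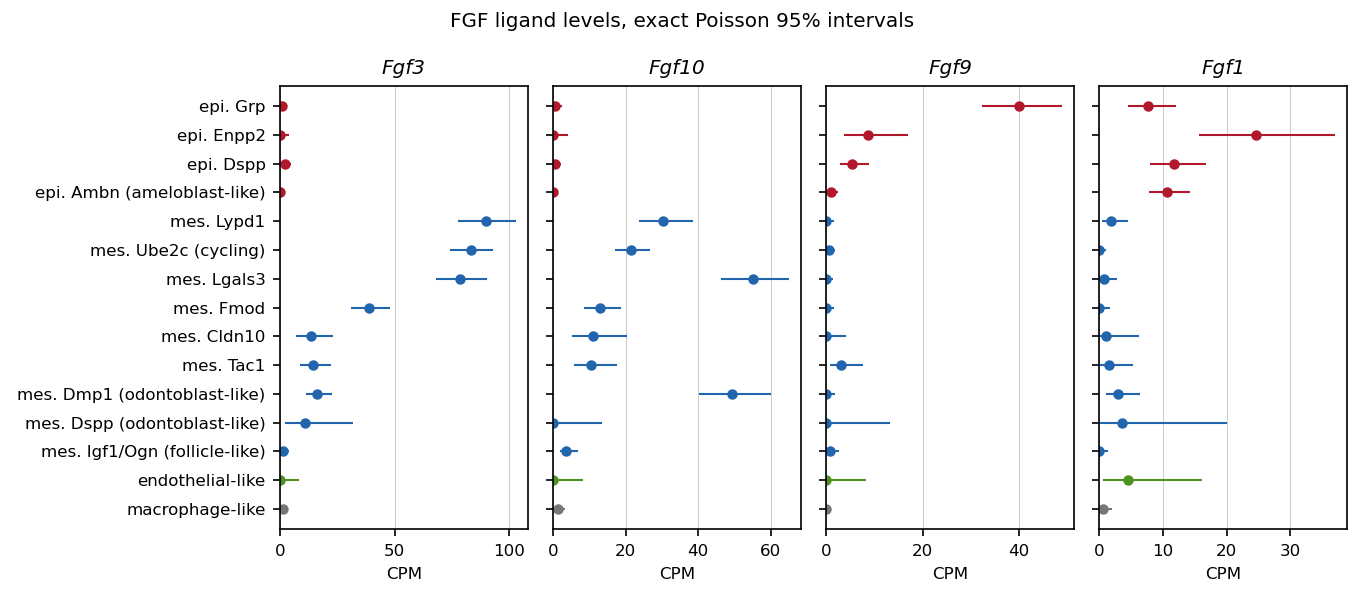
CPM of Fgf3, Fgf10, Fgf9 and Fgf1 (x axes, linear, different ranges) in each cell group (y axis), with exact Poisson 95% intervals. Red, blue, green and grey points are epithelial, mesenchymal, endothelial-like and macrophage-like groups. Fgf3 is highest at 89.6 CPM in the Lypd1 cluster, Fgf10 at 55.1 CPM in the Lgals3 cluster, Fgf9 at 40.1 CPM in the Grp cluster and Fgf1 at 24.7 CPM in the Enpp2 cluster.

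Fgf9, the ligand of the dental epithelium that acts on mesenchymal receptor forms, was concentrated in the Grp cluster. That cluster held 95 of all 129 UMIs and a level of 40.1 CPM (32.4 to 49.0). The Enpp2 cluster at 8.59 CPM and the epithelial Dspp cluster at 5.33 CPM lay apart from it and overlapped each other, and the ameloblast-like cluster had 0.949 CPM. Free RNA held Fgf9 at 2.78 CPM, with an interval (1.20 to 5.47) that overlapped those of the Enpp2, epithelial Dspp and ameloblast-like clusters. In the Grp cluster 11 of the 95 UMIs came from 1 cell, without which the level was 36.6 CPM. The log2 ratio of epithelial over mesenchymal cells was 4.75 (3.72 to 5.99), from 11.9 and 0.445 CPM. Weighting every cell equally gave 3.46. Of the 8 mesenchymal UMIs, 4 lay in the Tac1 cluster. In the Grp cluster 39 of 182 cells (21.4%) had an Fgf9 UMI, and 4.29% (1.74 to 8.65) of thinned cells did. No Fgf9 UMI was seen in macrophage-like cells. In the 92 Grp cells with at least 3 UMIs of the cycling markers, Fgf9 stood at 51.6 CPM (41.4 to 63.5), and in the 70 cells with none it stood at 14.0 CPM (4.55 to 32.7). The former cells had a median of 10619 UMIs and the latter 4699, and the part of depth in this difference was not tested. This split was chosen after the data had been seen.

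Fgf1 (ENSMUSG00000036585) was the other epithelial ligand and was spread over all epithelial clusters. FGF1 binds every FGF receptor and, like FGF2, lacks a signal peptide. It had 117 epithelial and 16 mesenchymal UMIs (11.5 and 0.890 CPM, log2 ratio 3.70, 2.94 to 4.55). Its level was 24.7 CPM (15.7 to 37.1) in the Enpp2 cluster, 11.8 CPM in the Dspp cluster, 10.7 CPM in the ameloblast-like cluster and 7.59 CPM in the Grp cluster, with overlapping intervals between neighbours. Fgf9 and Fgf1 hence had different orders: the Grp cluster was the highest for Fgf9 and the lowest epithelial cluster for Fgf1. Thinned to 2000 UMIs, Fgf1 was detected in 2.95% of epithelial cells, 0 of 2033 mesenchymal cells and 0.158% of macrophage-like cells. Unthinned, the shares were 12.5%, 0.635% and 0.253%. Free RNA held Fgf1 at 5.90 CPM, within the interval of the Grp cluster (4.50 to 12.0).

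Fgfr1 stood above 100 CPM in every epithelial and mesenchymal cluster. FGFR1 (gene ENSMUSG00000031565, chromosome 8, 25513654 to 25575718) is the main receptor of mesenchymal FGF signalling and is also used in dental epithelium. It had 2203 UMIs in epithelial cells (217 CPM) and 3174 in mesenchymal cells (176 CPM), a log2 ratio of 0.30 (0.22 to 0.38). Leaving the most abundant genes out of the totals gave 0.60, and weighting cells equally gave 0.09. The small odontoblast-like Dspp cluster stood at 694 CPM (599 to 800), apart from all others, and the Grp cluster at 306 CPM. The Cldn10 (288 CPM), Enpp2 (262 CPM), Fmod (238 CPM), epithelial Dspp (235 CPM) and Dmp1 (230 CPM) clusters followed, with overlapping intervals between neighbours. The mesenchymal clusters highest in Fgf3 were the lowest for Fgfr1: Lgals3 135 CPM, Ube2c 114 CPM and Lypd1 106 CPM. In the Grp cluster 97 of 726 Fgfr1 UMIs came from 1 cell, without which the level was 273 CPM. Grp cells rich in cycling markers, split as above, had 230 CPM from 397 UMIs and those without them 364 CPM from 130 UMIs. Grp cells between these limits held the rest of the 726 UMIs, so no order along cycling is drawn. The cell with 97 Fgfr1 UMIs was not removed before the split. The level without the top cell was computed after the data had been seen. Macrophage-like cells had 13.6 CPM and free RNA 67.7 CPM.

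Fgfr2 (ENSMUSG00000030849, chromosome 7, annotated from 130162451 to 133123350, minus strand), whose epithelial form receives FGF3, FGF7 and FGF10, was high in part of the epithelium and in the follicle-like cluster. The follicle-like cluster had 199 CPM (182 to 216), the Enpp2 cluster 104 CPM, the Grp cluster 57.4 CPM and the epithelial Dspp cluster 33.9 CPM, and each of the first 3 lay apart from the next. The ameloblast-like cluster had 1.66 CPM from 7 UMIs. In the mesenchyme, the Fmod, Tac1, Ube2c, Cldn10 and Lypd1 clusters had 12.5 to 23.0 CPM, the Lgals3 cluster 5.91 CPM and the Dmp1 cluster 1.46 CPM. Free RNA held 11.1 CPM, above the Lgals3 and Dmp1 values and within the intervals of the Cldn10 (6.87 to 23.2) and Lypd1 (8.29 to 18.0) clusters. Macrophage-like cells, which served as the background, had 1.36 CPM. Over whole layers Fgfr2 was at 32.4 CPM in the epithelium and 40.7 CPM in the mesenchyme (log2 ratio -0.33, -0.52 to -0.14, and -0.03 without abundant genes in the totals). Without the follicle-like cluster, which held 540 of the 732 mesenchymal UMIs, the log2 ratio was 1.37 and Fgfr2 passed 2-fold towards the epithelium.

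Fgfr3 (ENSMUSG00000054252, chromosome 5, 33721674 to 33737068), a receptor best known for restraining bone growth, was highest in CPM in the Fmod and Cldn10 clusters. They held 154 and 60 of its 475 UMIs, and the Ube2c cluster held 66. The Fmod cluster had 70.8 CPM and the Cldn10 cluster 66.4 CPM (50.7 to 85.5), with overlapping intervals. Endothelial-like cells came next at 35.9 CPM from 16 UMIs, with an interval of 20.5 to 58.3 that overlapped that of the Cldn10 cluster. The Ube2c cluster had 17.6 CPM, and the remaining epithelial and mesenchymal clusters had 0.761 to 14.0 CPM. Free RNA held 8.68 CPM. The epithelium as a whole was at 5.03 CPM and the mesenchyme at 22.3 CPM (log2 ratio -2.15, -2.60 to -1.73). Fgfr4 (ENSMUSG00000005320, chromosome 13, 55152640 to 55168759) had 17 UMIs in all cells, 7 of them in the Fmod cluster (3.22 CPM, 1.29 to 6.63), beside 0.347 CPM in free RNA. No other cluster had more than 3. The interval of the Fmod cluster lay above those of the ameloblast-like cluster (0 to 0.875) and macrophage-like cells (0 to 1.00) and overlapped those of its neighbours in the order.

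**Figure D3:**
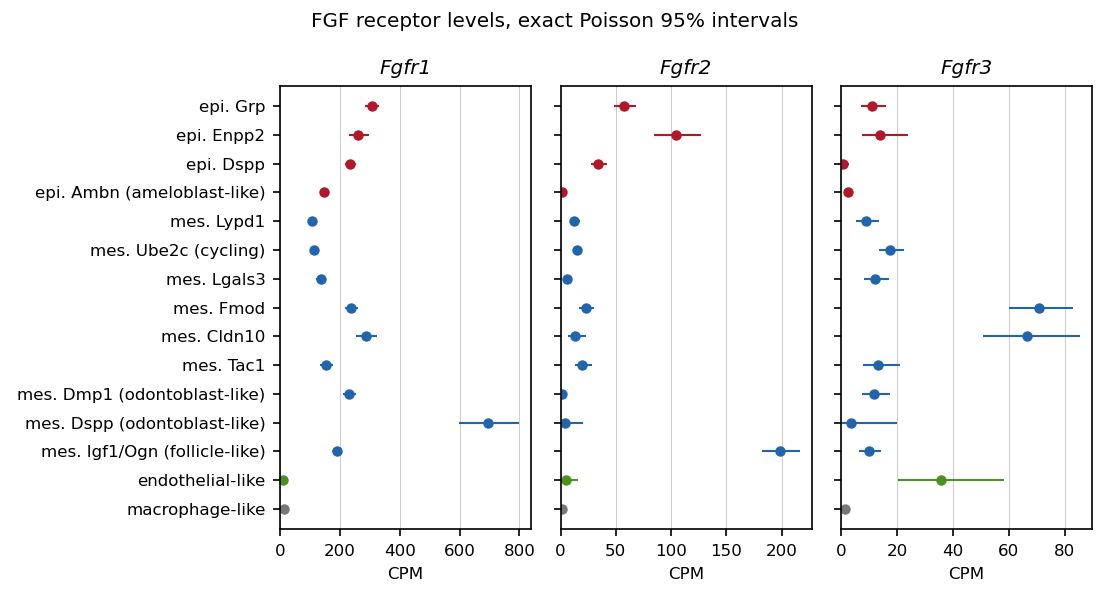
CPM of Fgfr1, Fgfr2 and Fgfr3 (x axes, linear, different ranges) in each cell group (y axis), with exact Poisson 95% intervals and colours by tissue layer. Fgfr1 lies above 100 CPM in all epithelial and mesenchymal groups, Fgfr2 is highest in the follicle-like group (199 CPM) and Fgfr3 in the Fmod group (70.8 CPM).

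The make-up of the receptor pool was compared for the same receptor across groups, since 3′ capture differs between genes. Fgfr2 made up 49.8% (46.8 to 52.8) of 1084 receptor UMIs in the follicle-like cluster, 27.4% of 354 in the Enpp2 cluster, 15.3% of 891 in the Grp cluster and 12.6% of 708 in the epithelial Dspp cluster. In the ameloblast-like cluster its share was 1.11% (0.446 to 2.27) of 633, and in the Dmp1 cluster 0.601% of 499. Fgfr3 made up 21.1% (18.2 to 24.3) of receptor UMIs in the Fmod cluster and 18.1% in the Cldn10 cluster, against 0.282% to 11.9% in the other epithelial and mesenchymal clusters. Endothelial-like cells had only 23 receptor UMIs, of which 69.6% (47.1 to 86.8) were Fgfr3. Fgfr1 made up 97.3% of the pool in ameloblast-like and 95.8% in odontoblast-like cells.

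Within the mesenchyme, the follicle-like cluster had another set of FGF genes than the rest. Of 6 members with at least 30 UMIs, 2 were higher in it (15.3% of all genes were) and 3 lower (10.1% of all genes). Fgfr2 was at 199 against 12.6 CPM (log2 ratio 3.98, 3.74 to 4.23) and Fgf2 at 8.46 against 2.29 CPM (1.88, 1.06 to 2.68). Fgf3 was at 1.47 against 56.5 CPM (-5.26, -7.14 to -3.90), Fgf10 at 3.68 against 28.9 CPM (-2.97, -4.04 to -2.08) and Fgfr3 at 9.94 against 24.5 CPM (-1.30, -1.92 to -0.74). Fgfr1 was level at 190 and 174 CPM. Set against single mesenchymal clusters, the follicle-like Fgfr3 interval (6.55 to 14.5 CPM) lay below those of the Fmod and Cldn10 clusters only. The follicle-like Fgf2 interval (5.37 to 12.7 CPM) overlapped those of the Fmod, Cldn10, Lypd1 and mesenchymal Dspp clusters. An Fgfr2 UMI was found in 64.4% of follicle-like cells and in 28.9% (24.2 to 33.9) after thinning, against 0.634% and 0.315% of macrophage-like cells. Perivascular markers summed to 199 CPM in the follicle-like cluster and 68.0 CPM over the mesenchyme. Their part in these values was not tested.

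Odontoblast-like cells, set against all other mesenchymal cells, had none of 6 members higher (7.74% of all genes were) and 4 lower (22.2% of all genes). Fgfr2 was at 1.72 against 46.5 CPM (log2 ratio -4.76, -6.64 to -3.39), Fgf3 at 15.5 against 53.0 CPM (-1.77, -2.30 to -1.29), Fgfr3 at 10.8 against 24.0 CPM (-1.16, -1.80 to -0.57) and Fgf2 at 3 against 55 UMIs, with an interval (-3.77 to 0.18) that reached past 0. The follicle-like cluster held 540 of the 728 Fgfr2 UMIs of the other mesenchymal cells, and the ratio without it was not computed. Fgf10 was at 43.4 against 22.3 CPM and just within 2-fold (0.96, 0.63 to 1.28), as was Fgfr1 at 286 against 160 CPM (0.83, 0.71 to 0.96). The osteoblast list summed to 51077 CPM in these cells and 10939 CPM over the mesenchyme, and its part in the values was not tested. The Fgf3 and Fgf10 values depended on where the cluster ended. With the mesenchyme divided more finely (resolution 1.0 in place of 0.5), Fgf10 passed 2-fold at a log2 ratio of 1.495 and Fgf3 lost its call at -0.37. Weighting cells equally gave Fgf10 1.24 and Fgf3 -1.05.

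Ameloblast-like cells had less Fgf9 and Fgfr2 than the other epithelial cells. Of 5 members measured, 0 were higher (3.54% of all genes were) and 3 lower (40.5% of all genes). Fgf9 was at 0.949 against 19.7 CPM (log2 ratio -4.38, -6.28 to -2.98), Fgfr2 at 1.66 against 54.3 CPM (-5.03, -6.36 to -3.97) and Fgfr3 at 2.37 against 6.92 CPM (-1.54, -2.71 to -0.52). Amelx took 32.9% of all UMIs of this cluster and the median log2 ratio of all genes was -0.80. With Amelx, Ambn, Enam and 5 other abundant genes left out of the totals, that median was -0.09 and the shares were 9.92% higher and 19.3% lower. Fgf9 (-3.66) and Fgfr2 (-4.32) stayed lower by that scaling, Fgfr3 came within 2-fold (-0.83), Fgfr1 moved from -0.87 to -0.16 and Fgf1 from -0.19 to 0.53.

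**Figure D4:**
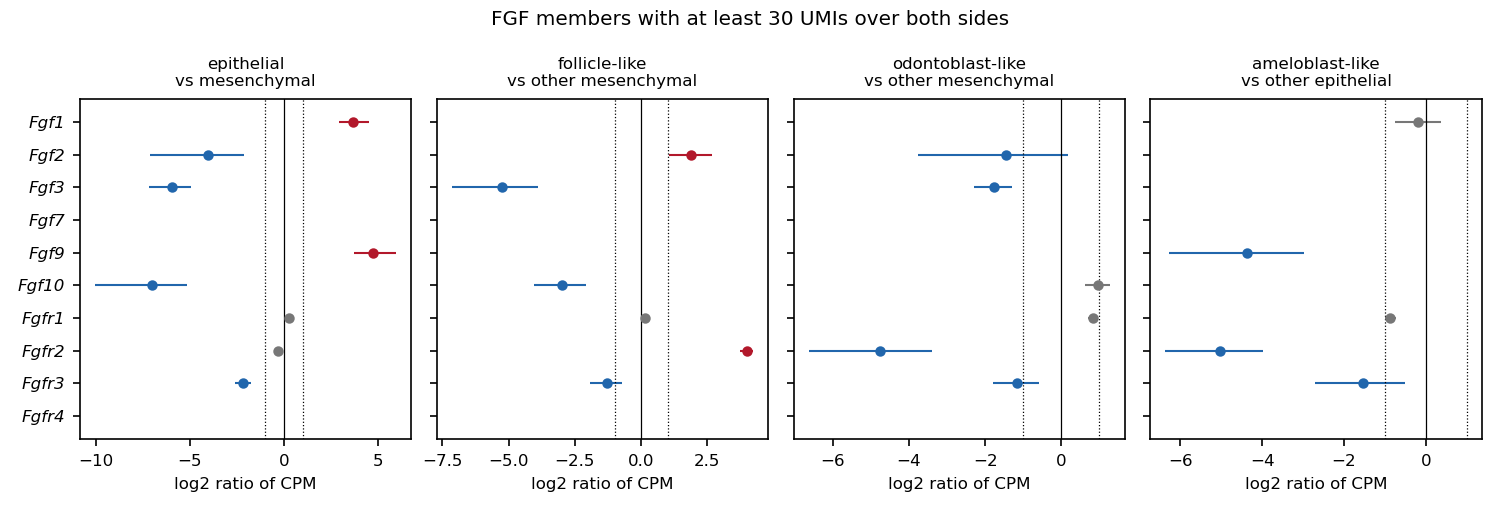
Log2 ratio of CPM (x axis) for each FGF member with at least 30 UMIs over both sides (y axis) in 4 comparisons, with exact 95% intervals. Red and blue points are at least 2-fold higher or lower, grey points are within 2-fold, and dotted lines mark 2-fold. Fgfr2 is on opposite sides in follicle-like (3.98) and odontoblast-like cells (-4.76). The follicle-like cluster is among the cells that odontoblast-like cells are set against.

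Endothelial-like cells had no more than 5 UMIs of any member except Fgfr3. Of 6 members measured, 0 were higher than in the mesenchyme (18% of all genes were) and 5 lower (27.7% of all genes). Of these 5, 4 had an interval beyond 0, Fgf2 being the exception. Fgfr1 had 5 UMIs (11.2 CPM, log2 ratio -3.97, -5.60 to -2.75), beside 13.6 CPM in macrophage-like cells, and Fgfr2 had 2 UMIs (-3.18, -6.23 to -1.32). Fgf3, Fgf10 and Fgf2 had 0 UMIs. With a floor of 3 counts over the group the log2 bounds were -2.84 for Fgf3 and -1.90 for Fgf10, whereas for Fgf2 the bound was 1.06, so a lower level of Fgf2 was not detectable at this depth. Fgfr3 was at 35.9 against 22.3 CPM (0.69, -0.13 to 1.41), within 2-fold, and at 1.36 CPM in macrophage-like cells. Fgf1 had 2 UMIs (4.49 CPM, 0.54 to 16.2) against 0.890 CPM in the mesenchyme, too few to be measured. Fgf7, Fgf9 and Fgfr4 had 0 UMIs. The interval of a count of 0 reached 8.28 CPM, above the mesenchymal levels of Fgf2, Fgf7, Fgf9 and Fgfr4.

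Fgf3 and Fgf10 were found in the same thinned mesenchymal cells 13 times, where independent detection would give 6.16. Fgf3 and Fgfr2 were found together in 3 cells against 11.3 if independent, and Fgf10 and Fgfr2 in 0 cells against 6.36. Detection of Fgf3 with Fgfr1 (38 cells, 42.9 if independent) and with Fgfr3 (4 cells, 6.30 if independent) was closer to independence. Within single clusters the counts lay near those of independence: Fgf3 with Fgf10 was seen in 4 cells of the Lypd1 cluster (3.18 if independent), and Fgfr1 with Fgfr2 in 32 follicle-like cells (31.7 if independent). These are descriptions within 1 library at 2000 UMIs per cell.

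Genes with the most similar pattern over 18 clusters of at least 50 cells were sought by Pearson correlation of log2(CPM + 5) among 10186 genes. All clusters share 1 library, and no test is attached. Fgf3 was nearest to Foxd1 (r = 0.97), Gm48898 (0.97) and Sall3 (0.95), and Fgf10 to Smpd3 (0.96), Gsc (0.96) and Lgr6 (0.95). Fgf3 and Fgf10 had an r of 0.90 with each other. Fgf9 was nearest to Krt18 (0.95), Sfrp5 (0.93) and Igfbpl1 (0.92), and Fgf1 to Hspb8 (0.94), Echdc1 (0.93) and Cdkl2 (0.93). Fgfr1 was nearest to Apbb1, Rab34 and Ptk7 (each 0.96), Fgfr2 to Mpped2 (0.92), Neo1 (0.91) and Myh10 (0.90), and Fgfr3 to Hey1 (0.90), Tmem158 (0.89) and Eogt (0.89). Foxd1 and Krt18 are also markers used in naming the clusters, and Hey1 and Eogt are among the leading genes of the Cldn10 cluster, which is high in Fgfr3.

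Of 16 further genes of the FGF family, 5 (Fgf8, Fgf11, Fgf13, Fgf15 and Fgf23) had at least 30 UMIs over epithelial and mesenchymal cells. All 5 were lower in the epithelium (20.1% of all genes were). Below that minimum the directions were mixed. Fgf12 (21 epithelial and 5 mesenchymal UMIs) and Fgf16 (14 and 1) were higher in the epithelium, and Fgf14 (0 and 13) was lower. Fgf8, known as an early signal of the dental epithelium in the embryo, had 10 epithelial and 256 mesenchymal UMIs (log2 ratio -3.85, -4.93 to -2.95) in 184 cells of all kinds. It was found where Fgf3 was high: 31.1 CPM in the Lgals3 cluster, 30.2 CPM in the Ube2c cluster and 17.8 CPM in the Lypd1 cluster, against 0.368 CPM in the follicle-like cluster. Fgf13, an intracellular relative that is not secreted, had 10.1 CPM in the mesenchyme (-5.10, -7.39 to -3.53), and Fgf15 had 1 and 33 UMIs (-4.22, -9.56 to -1.64). Fgf23, a hormone of phosphate balance, had 81 UMIs in the mesenchyme and 0 in epithelial and endothelial-like cells. Of these, 80 came from 1 cell of the Lypd1 cluster, which had 11099 UMIs in all, 3 Fgf1 and 6 Fgfr1 UMIs and none of Fgf3, Fgf8 or Fgf10. Only 2 cells had Fgf23 at all, so its place among the called genes rests on that cell. Fgf4, Fgf5, Fgf6 and Fgf20 had 0 UMIs.

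Genes that respond to FGF signalling varied among the clusters of each layer. Of 9 measured, 0 were higher and 3 lower in the epithelium (Spry1, Spry4 and Etv4), beside 10.5% and 20.1% of all genes. With abundant genes left out of the totals 1 was lower, Spry4, beside 15% of all genes, so the counts were near those of all genes. Spry4, a feedback inhibitor, had 4.93 and 23.8 CPM (log2 ratio -2.27, -2.72 to -1.85), Spry1 20.8 and 49.9 CPM (-1.26, -1.48 to -1.04) and Etv4 18.6 and 39.6 CPM (-1.09, -1.33 to -0.86). Within the epithelium 8 of the 9 were highest in the Grp cluster, and Spred1 was highest in the Enpp2 cluster (95.6 CPM against 51.9 CPM in the Grp cluster). The share of all genes that were highest in the Grp cluster was not computed, so this count has no background. Amelx took 32.9% of UMIs in the ameloblast-like cluster, 8.58% in the epithelial Dspp cluster and 0.0224% in the Grp cluster. Its part in these levels was not tested. The Grp cluster held 111 CPM of Dusp6, a phosphatase acting on ERK, 105 CPM of Etv5 and 66.2 CPM of Etv4. The epithelial Dspp cluster had 6.85, 4.19 and 2.28 CPM of the same genes. The Enpp2 cluster had 2.15 CPM of Etv5. In ameloblast-like cells 8 of the 9 were lower than in other epithelial cells (40.5% of all genes were), and 7 with abundant genes left out of the totals (19.3% of all genes). Il17rd was within 2-fold at 16.1 against 27.3 CPM. In the mesenchyme Etv5 was highest in the Dmp1 (88.9 CPM) and Lgals3 (56.7 CPM) clusters, and Etv4 stood at 64.0 and 65.7 CPM there. Odontoblast-like cells as a whole had 1 of the 9 higher than other mesenchymal cells, Etv5, and 2 lower, Dusp6 (log2 ratio -1.29, -2.00 to -0.66) and Il17rd (-2.35, -3.27 to -1.56). Of all genes 7.74% were higher and 22.2% lower, so these counts were near those of all genes. In the follicle-like cluster 6 of the 9 were lower than in other mesenchymal cells, among them Spry1 (log2 ratio -3.20), Etv4 (-2.48) and Etv5 (-2.42), and none was higher, beside 10.1% and 15.3% of all genes. Endothelial-like cells had the highest Spry1 (182 CPM) and Dusp6 (260 CPM) of the groups plotted, with Etv4 at 1 UMI.

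**Figure D5:**
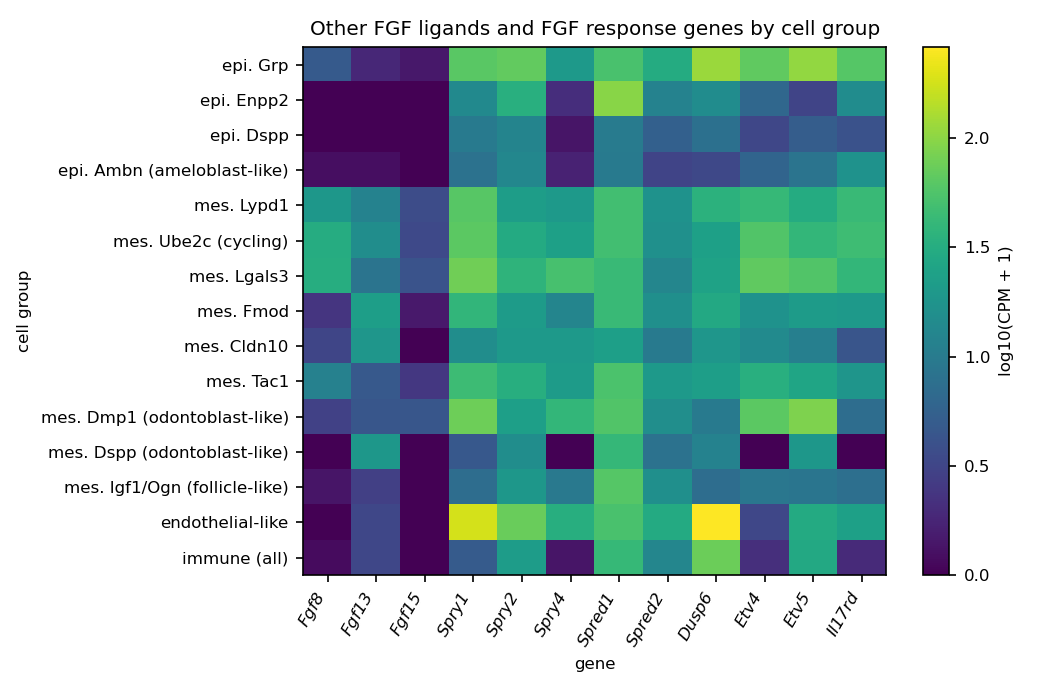
Level of 3 further FGF family genes and the 9 FGF response genes (x axis) in each cell group (y axis), coloured by log10(CPM + 1). The Grp row is bright for Dusp6 (111 CPM) and Etv5 (105 CPM), while the epithelial Dspp, ameloblast-like and follicle-like rows are darker for Etv4 and Etv5.

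Coreceptors and heparan sulphate genes, which set how ligands reach the receptors, were compared in the same way. Of 14 coreceptors, decoy receptors and binding proteins, 11 were measured between the layers, with 1 higher and 3 lower in the epithelium, near the shares of all genes (10.5% and 20.1%). Gpc1 was at 68.2 against 32.2 CPM (log2 ratio 1.08, 0.92 to 1.25), the syndecan Sdc3 at 8.58 against 149 CPM (-4.12, -4.45 to -3.81), Gpc6 at 5.32 against 59.0 CPM (-3.47, -3.89 to -3.08) and Gpc3 at 100.3 against 225 CPM (-1.17, -1.27 to -1.07). Without abundant genes in the totals 2 were lower. Of 8 genes of heparan sulphate synthesis and editing, 1 was lower in the epithelium: Sulf2, an enzyme that removes sulphate from the chains, at 1.87 against 44.1 CPM (-4.56, -5.30 to -3.91). Hs6st2 followed at -0.78 (-1.53 to -0.08). In the follicle-like cluster 5 of these 8 were higher than in other mesenchymal cells (15.3% of all genes were) and 0 lower (10.1% of all genes), with Sulf2 at 247 against 8.06 CPM (4.94) and Hs2st1 at 118 against 28.6 CPM (2.04). None of the 6 receptor adaptors passed 2-fold between the layers, the largest ratios being those of Frs3 (-0.76, -1.43 to -0.13) and Grb2 (0.74, 0.59 to 0.89). With abundant genes left out of the totals Grb2 and Hs6st1 were called higher. Of the 3 regulators of receptor splicing, Esrp1 and Esrp2, which promote the epithelial receptor forms, were higher in the epithelium. Esrp1 was at 54.7 against 0.389 CPM (7.14, 6.08 to 8.46), and Esrp2 had 63 UMIs against 0. Rbfox2, which also regulates this splicing, was at 46.1 against 59.7 CPM (-0.37, -0.53 to -0.21).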

How the data were processed

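Per the labels, mouse incisor cells were barcoded with 10x Genomics 3′ chemistry. The authors deposited 1 unfiltered matrix of UMI counts (31053 genes, 6794880 barcodes, 68931830 UMIs), written by software version 3.0.2 per the file headers, with 0 sample columns left unused. Build mm10, R 3.4.1 and Seurat 3.4.1 are named in the submitters' processing notes, and the sources used here do not give the aligner or the annotation release. The 2 titles (2 lanes) were treated as 1 sample, and cells are not replicates, so nothing was tested.

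Of the 5336 barcodes with 500 or more genes, 4775 had no more than 20% mitochondrial UMIs. Scrublet marked 1 of them on its own threshold, and 122 were instead removed at scores over 0.15. In addition, 151 barcodes outside the erythroid cells had over 5% haemoglobin UMIs and were removed. Clustering (scanpy 1.11.5, 10000 UMIs per cell, 2000 variable genes, 30 components, 15 neighbours, Leiden at resolution 1.0, mesenchyme again at 0.5) left out the members, the 56 pathway genes and mitochondrial genes. Clusters were named from 25 marker lists by at least 3 markers raised 2-fold over the median cluster in at least 25% of cells. No FGF member was a marker. Follicle-like and odontoblast-like clusters had at least 4 raised markers.

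Counts were summed per group as CPM. Genes with 30 or more UMIs summed over a comparison were measured, and a 2-fold difference was a call. Groups with 0 counts got a floor of 3 counts. Cells were thinned to 2000 UMIs for shares of cells (687 cells were shallower), and droplets of 1 to 20 UMIs gave the free RNA level. GENCODE M21 lists 31011 of the gene identifiers. RefSeq windows matched 8 of the 10 members, without Fgf1 and Fgfr1. The members, lists and markers were chosen with earlier results of these data known. Named were all 10 members, the 2 to 4 genes of each pathway list with the largest ratio between the layers, and the 3 genes most like each member with at least 100 UMIs. Further response and heparan sulphate genes, and Fgf23, were named after their values were seen. The calculation of ratios and intervals was checked on simulated independent Poisson counts, without differences between cells. That check cannot show how well the intervals cover these data. Alternatives are in the closing section.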

Additional observations from a re-analysis of the deposited data

How the results depend on the processing

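Each count of called members was recomputed under other totals, equal weight per cell, at least 1000 detected genes, at most 10% mitochondrial UMIs, doublets and haemoglobin-rich cells kept, other UMI minimums, a 1.5-fold rule, a rule that also needs the interval beyond 0, other cluster resolutions, clustering with all variable genes, and without the follicle-like or the cycling cluster, as far as each applies. The 59 recomputed values also include the number of members detected in a larger share of epithelial than of mesenchymal cells. It was recomputed without thinning and with thinning to 1000 UMIs. Of the 59 values 55 stayed within 1.5 times the main one, a rule that compares numbers and not which members were called. The other 4 came with no minimum of UMIs, where sparse genes enter: 9 members were called in place of 5 between endothelial and mesenchymal cells, 8 in place of 5 for follicle-like cells, 7 in place of 4 for odontoblast-like cells and 7 in place of 3 for ameloblast-like cells. No log2 ratio of a called member reversed among the 27 ratios followed. The 6 calls between the layers were of the same members in 10 of 13 alternatives. With at least 100 UMIs Fgf2 lost its call, with no minimum Fgf7 and Fgfr4 joined, and without the follicle-like cluster Fgfr2 joined. Keeping doublets and haemoglobin-rich cells gave Fgf3 a log2 ratio of -4.74 between the layers. Over all genes, leaving abundant genes out of the totals moved the ameloblast-like comparison from 3.54% to 9.92% higher and from 40.5% to 19.3% lower. No paired analysis was possible because there is 1 sample. With 74 endothelial-like cells and 22 cells in the mesenchymal Dspp cluster, depth limits every ligand there, and Fgf7 and Fgfr4 are limited by depth everywhere. The split by cycling markers and the levels without the top cell were chosen after seeing the data.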
